A study of Mus musculus with 10 samples.

Results

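The genes described here are 33 genes of the unfolded protein response and the integrated stress response, measured in lymphatic endothelial cells (LEC), which form the wall of lymphatic vessels, sorted from mouse melanomas. They were picked by gene symbol from a table of 23510 rows, and each of the 33 symbols stood on a single row. All 33 passed the filter on low counts, among 16240 genes tested. By role they were 12 endoplasmic reticulum (ER) chaperones and folding enzymes, 5 genes of ER-associated degradation (ERAD), 3 stress sensors, 3 transcription factors, 2 regulatory subunits of the eIF2α phosphatase and 8 target genes of the transcription factor ATF4. In the anti-Ang2 group, 5 C57BL/6N mice carried fragments of MT-ret melanoma on the ventral flank and were injected with an antibody against angiopoietin-2 (Ang2), a ligand of the endothelial receptor Tie2. In the IgG group, 5 mice of the same strain with the same tumour fragments were injected with IgG. All mice were killed after 12 h, LEC were isolated by FACS, and 0.5 ng of RNA per mouse went into 1 library. Age, sorting gate and antibody dose are not given in the sources used here. According to the title of the series, the comparison asks what acute inhibition of Ang2 does to the transcriptome of tumour LEC.

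Proteins that fail to fold in the ER activate the unfolded protein response through the membrane sensors IRE1 (gene Ern1), PERK (Eif2ak3) and ATF6. IRE1 splices the Xbp1 mRNA into the form that encodes an active factor, ATF6 is cut to release a factor, and both raise ER chaperones and ERAD genes. PERK phosphorylates the translation factor eIF2α, which lowers protein synthesis as a whole and favours translation of Atf4. Other kinases that sense lack of amino acids, haem or viral RNA converge on eIF2α too, and this shared arm is the integrated stress response. ATF4 raises genes of amino acid synthesis and transport, and with CHOP (Ddit3) genes such as Trib3 and Chac1. Splicing of Xbp1, cleavage of ATF6 and translation of Atf4 are not read by gene counts, which report the level of each mRNA only.

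Promoters of genes in both arms can hold short elements that their factors are known to bind, and those found here are shown so that the values can be read beside them. A match is a description of the letters, and no match says only that these letters are not in the window. Windows from 250 bases before to 50 bases after the transcription start (RefSeq, GRCm38.p6) were found by symbol for 29 of the 33 genes, in 31 windows. No window was found for Manf, Derl1, Atf6 and Ppp1r15b. Both strands were searched for the ER stress response element (ERSE, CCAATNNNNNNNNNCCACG), for ERSE-II (ATTGG, any base, CCACG), for the box CCACG that both of them contain, and for the ATF4 composite element TGATGNAA. ERSE was present in 0.119% of all 32851 windows of the table, and in 7 of the 11 chaperone genes with a window (Hspa5, Hsp90b1, Calr, Canx, Pdia6, Dnajc3 and Creld2) and in Syvn1. The box CCACG was present in 32.8% of all windows and in 23 of the 29 genes. Hspa5 encodes the main ER chaperone BiP. The 250 bases before its RefSeq start hold 1 ERSE, whose first base lies 65 bases before that start. In the GENCODE M21 annotation Hspa5 starts 120 bases before the RefSeq start, and by that start the ERSE lies after it. The 2 boxes of the ERSE are in capitals.
Hspa5 (chr2:34771840-34772089, plus strand): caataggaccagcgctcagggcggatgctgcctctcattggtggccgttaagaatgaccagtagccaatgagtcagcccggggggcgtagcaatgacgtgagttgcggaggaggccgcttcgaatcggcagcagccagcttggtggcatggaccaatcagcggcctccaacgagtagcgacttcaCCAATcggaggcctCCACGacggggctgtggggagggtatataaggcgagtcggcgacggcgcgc

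The other ERSE matches are given from their CCAAT end, with the CCAAT and CCACG boxes in capitals and the 9 bases between them in lower case. Hsp90b1 had 2 matches. The chromosome position is that of the match and the strand is that of the gene.
Hsp90b1 (chr10:86705638-86705656, minus strand): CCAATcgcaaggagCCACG
Hsp90b1 (chr10:86705533-86705551, minus strand): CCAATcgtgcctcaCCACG
Calr (chr8:84847075-84847093, minus strand): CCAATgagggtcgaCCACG
Canx (chr11:50325800-50325818, minus strand): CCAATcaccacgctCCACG
Pdia6 (chr12:17266491-17266509, plus strand): CCAATgaaaggcggCCACG
Dnajc3 (chr14:118937827-118937845, plus strand): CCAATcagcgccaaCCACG
Creld2 (chr15:88819520-88819538, plus strand): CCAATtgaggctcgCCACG
Syvn1 (chr19:6046532-6046550, plus strand): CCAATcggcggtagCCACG

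The ATF4 composite element was present in 3.97% of all windows and in 5 of the 8 ATF4 targets, namely Trib3, Chac1, Asns, Slc7a11 and Vldlr. It lay 193 bases before the RefSeq start of Chac1 and 14 bases after that of Trib3, the genes that passed the test below. In GENCODE M21 Trib3 starts 28 bases further along the gene, and by that start the element lies before it. Capitals mark the element, which is printed along the gene and so appears in reverse complement where it lies on the other strand. For Chac1 the 250 bases before the start are shown.
Chac1 (chr2:119350992-119351241, plus strand): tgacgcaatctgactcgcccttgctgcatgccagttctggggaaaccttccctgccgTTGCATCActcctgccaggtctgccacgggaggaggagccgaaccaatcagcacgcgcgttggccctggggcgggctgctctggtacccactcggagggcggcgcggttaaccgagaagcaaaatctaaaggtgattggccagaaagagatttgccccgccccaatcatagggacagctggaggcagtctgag
For the other 4 targets a shorter stretch around the element is shown. Slc7a11 had 2 matches in opposite directions, and Vldlr had its match before the second of its 2 annotated starts.
Trib3 (chr2:152344028-152344057, minus strand): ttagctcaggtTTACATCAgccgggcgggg
Asns (chr6:7693214-7693243, minus strand): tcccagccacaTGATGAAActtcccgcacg
Slc7a11 (chr3:50443642-50443690, minus strand): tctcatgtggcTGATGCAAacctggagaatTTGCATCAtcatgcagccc
Vldlr (chr19:27216809-27216838, plus strand): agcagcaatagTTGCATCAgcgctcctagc
No match was found in the windows of Sesn2, Phgdh and Psat1, and the windows of Psat1 start 22278 and 22715 bases from the 5′ end of the gene in GENCODE M21. Outside the targets the element was found in 1 member, the ERAD gene Herpud1, together with the sole ERSE-II among the 29 genes (0.0365% of all windows). The stretch that holds both is shown with each element in capitals.
Herpud1 (chr8:94386306-94386395, plus strand): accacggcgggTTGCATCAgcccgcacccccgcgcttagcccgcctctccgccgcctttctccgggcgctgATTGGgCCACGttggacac

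The 10 libraries held 38090933 to 83850341 gene counts. The 7 lymphatic endothelial markers were present in every library and summed to 13370 to 18440 CPM in anti-Ang2 and 16200 to 19360 CPM in IgG libraries, where CPM are read counts relative to the library total, scaled by TMM. Prox1, which specifies LEC, had 979.7 to 1343 CPM in anti-Ang2 and 1183 to 1390 CPM in IgG libraries. Of the 7, 2 had a positive and 5 a negative estimate, and Ccl21a, a chemokine of LEC, fell (log2 fold change -1.22 ± 0.19, SE, edgeR adjusted p = 0.00447); the groups did not overlap for Ccl21a and Pdpn. The 7 pan-endothelial markers summed to 3727 to 4441 CPM in anti-Ang2 and 4702 to 5883 CPM in IgG libraries, which did not overlap (two-sided exact permutation p = 0.00794, the smallest that 5 against 5 can give, or 0.0635 adjusted over the 8 marker lists), and of them Erg and Kdr fell. Transcripts of melanoma cells were also present. The 12 melanoma markers summed to 8050, 5966, 6880, 2575 and 1651 CPM in anti-Ang2 libraries 1 to 5, and to 649.7, 2459, 399.6, 2630 and 865.1 CPM in IgG libraries 1 to 5. None of the 12 was at 0 in all libraries, all 12 had a positive estimate and 1 passed the test. Over the sum the exact permutation p was 0.0397 (adjusted p = 0.106). Macrophage and monocyte markers summed to 75.06 to 297.1 CPM in anti-Ang2 and 53.79 to 210.3 CPM in IgG libraries (exact permutation p = 0.127, adjusted p = 0.203), with 13 of 14 tested markers positive and 0 called. Pericyte and smooth muscle markers summed to 154.1 to 439.1 CPM in anti-Ang2 and 60.19 to 236.4 CPM in IgG libraries (exact permutation p = 0.0317, adjusted p = 0.106), with 4 of 8 positive and 1 called higher. For fibroblast, T and B cell, and keratinocyte markers the exact permutation p was 0.619, 0.119 and 0.325, and 0 were called. The part of cells other than LEC in the results was not tested beyond the fits with melanoma and macrophage sums given below. Libraries anti-Ang2 4 and 5 stood apart from the other anti-Ang2 libraries, with the lowest quality weights of all 10 (0.606 and 0.417, against 0.911 to 1.43).

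Of the 33 genes, 2 rose after anti-Ang2 and 0 fell, by edgeR's quasi-likelihood test at a Benjamini-Hochberg adjusted p under 0.05. Both genes that rose, Trib3 and Chac1, belong to the ATF4 targets. Among all 16240 tested genes, 1.34% were called higher and 2.8% lower. At an unadjusted p under 0.05 there were 3 members higher and 2 lower, where 1484 of all 16240 tested genes were higher and 1478 lower. DESeq2 called 2 higher and 1 lower (Dnajc3), and limma-voom with quality weights called 2 higher and 0 lower. Among all 16240 tested genes DESeq2 called 751 higher and 849 lower, and limma-voom 670 and 780. The groups did not overlap for 1 of the 33 genes (Chac1), where 6.1% of all tested genes had groups that did not overlap. Estimates were positive for 14 members and negative for 19, and their median log2 fold change was -0.04, against 0.01 over all tested genes. The median standard error of a member was 0.12 on the log2 scale and that of all tested genes 0.20. As RNA came from a sorted population, fewer cells of a kind and less RNA per cell cannot be told apart.

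**Figure D1:**
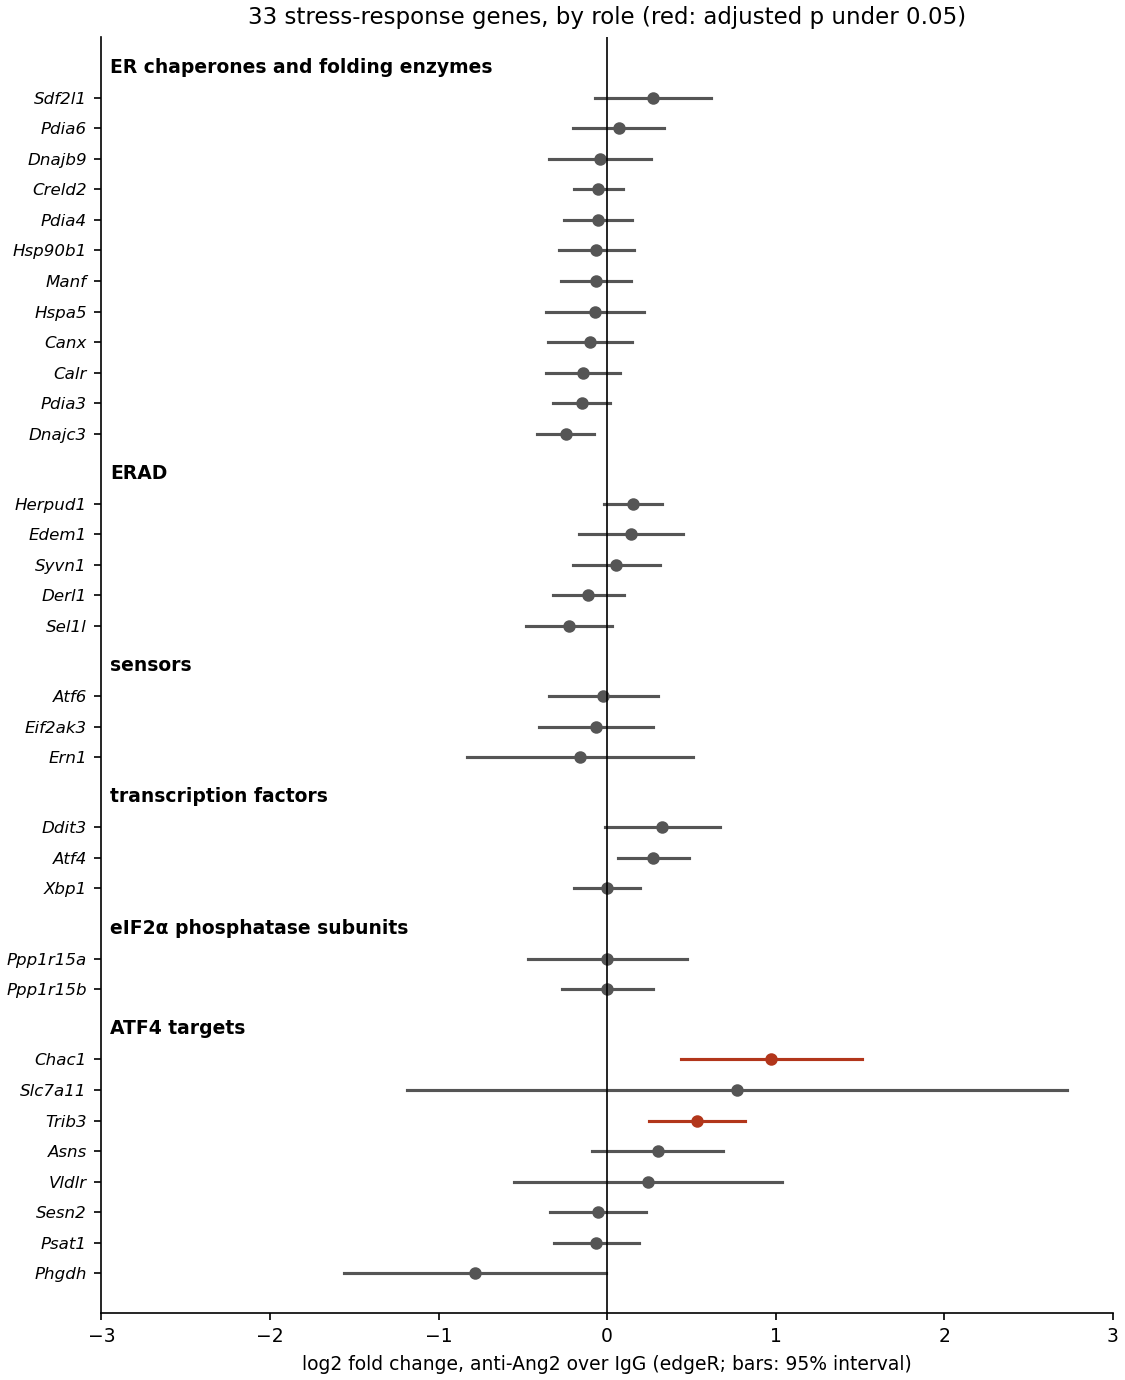
Estimated log2 fold change of each of the 33 genes, anti-Ang2 over IgG (horizontal axis), with its 95% interval, sorted within each role; genes with an adjusted p under 0.05 are red. The chaperones lie close to 0 with narrow intervals (estimates -0.25 to 0.27), and Chac1 and Trib3 are the genes drawn in red.

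The ER chaperones and folding enzymes together took 0.47% of the counts of a library on average. Their levels differed widely, with group means from 28.27 CPM (Dnajb9 in anti-Ang2) to 1022 CPM (Pdia3 in IgG libraries). None of the 12 passed the test in either direction with edgeR, and 1 (Dnajc3) was lower at an unadjusted p under 0.05. Their estimates ran from -0.25 for Dnajc3 to 0.27 for Sdf2l1, with 2 positive, 10 negative and a median of -0.06. For Hspa5 the 95% interval of the fold change was 0.778 to 1.16, for Pdia4, a disulfide isomerase, 0.839 to 1.11, and for Creld2, an ER-resident protein induced by ER stress, 0.871 to 1.07. The widest chaperone interval was that of Sdf2l1, 0.952 to 1.53. These intervals cover all 10 libraries, and the estimate for Hspa5 left its interval when anti-Ang2 1, 2 and 3 were left out (given below).

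Per gene length, Pdia3, the disulfide isomerase that works on glycoproteins with calreticulin and calnexin, had the highest level of the 33 genes (the authors' FPKM, 306 ± 12.7 FPKM in anti-Ang2 and 335 ± 25.4 FPKM in IgG libraries, SD, n = 5 each). Its values were 947.7, 999.3, 858.7, 891.8 and 905.8 CPM in anti-Ang2 libraries 1 to 5, against 900.3, 1040, 1087, 1086 and 997.1 CPM in IgG libraries 1 to 5. The groups overlapped, since IgG 1 and 5 lay within the anti-Ang2 range (log2 fold change -0.15 ± 0.08, SE, adjusted p = 0.338). Hspa5 had 934, 1209, 1023, 715.2 and 740.7 CPM in anti-Ang2 libraries, against 960.0, 984.1, 975.7, 959.7 and 981.9 CPM in IgG libraries. The IgG libraries lay close together, whereas the anti-Ang2 libraries lay on both sides of them (924.5 ± 205 CPM against 972.3 ± 11.8 CPM, SD, n = 5 each; log2 fold change -0.07 ± 0.13, SE, adjusted p = 0.845). Dnajc3, a cochaperone of BiP that also inhibits eIF2α kinases, had 182.6, 205.6, 179.3, 168.8 and 174 CPM in anti-Ang2 libraries, against 206.3, 207.7, 202.4, 235.9 and 227.4 CPM in IgG libraries. All anti-Ang2 libraries other than anti-Ang2 2 lay below the IgG range, and the fold change was 0.843 (95% interval 0.751 to 0.947, adjusted p = 0.103).

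The lectin chaperones Calr and Canx averaged 562.7 ± 76.9 CPM and 522.4 ± 80.7 CPM in anti-Ang2 libraries, against 621.6 ± 40.7 CPM and 560.3 ± 57 CPM in IgG libraries (SD, n = 5 each). Hsp90b1, the HSP90 of the ER, averaged 532.1 ± 81.6 CPM in anti-Ang2 libraries and 556.3 ± 29.6 CPM in IgG libraries. Pdia6 averaged 426.7 ± 74.9 CPM in anti-Ang2 and 406.4 ± 39.1 CPM in IgG libraries, and Pdia4 270.4 ± 32.7 CPM in anti-Ang2 and 280.7 ± 17.2 CPM in IgG libraries. In all 5 of these genes the difference between the means was smaller than the larger of the 2 SDs. The other 4 genes had fewer CPM. Manf, a secreted ER stress protein, averaged 85.41 ± 9.65 CPM in anti-Ang2 and 89.34 ± 7.84 CPM in IgG libraries, and Creld2 56.37 ± 3.3 CPM in anti-Ang2 and 58.48 ± 1.09 CPM in IgG libraries. Sdf2l1, a partner of BiP cochaperones, averaged 40.68 ± 8.38 CPM in anti-Ang2 and 33.66 ± 5.06 CPM in IgG libraries. For Dnajb9, another BiP cochaperone, the means were 28.27 ± 5.11 CPM in anti-Ang2 and 29.14 ± 3.85 CPM in IgG libraries, and the groups of all 4 genes overlapped.

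**Figure D2:**
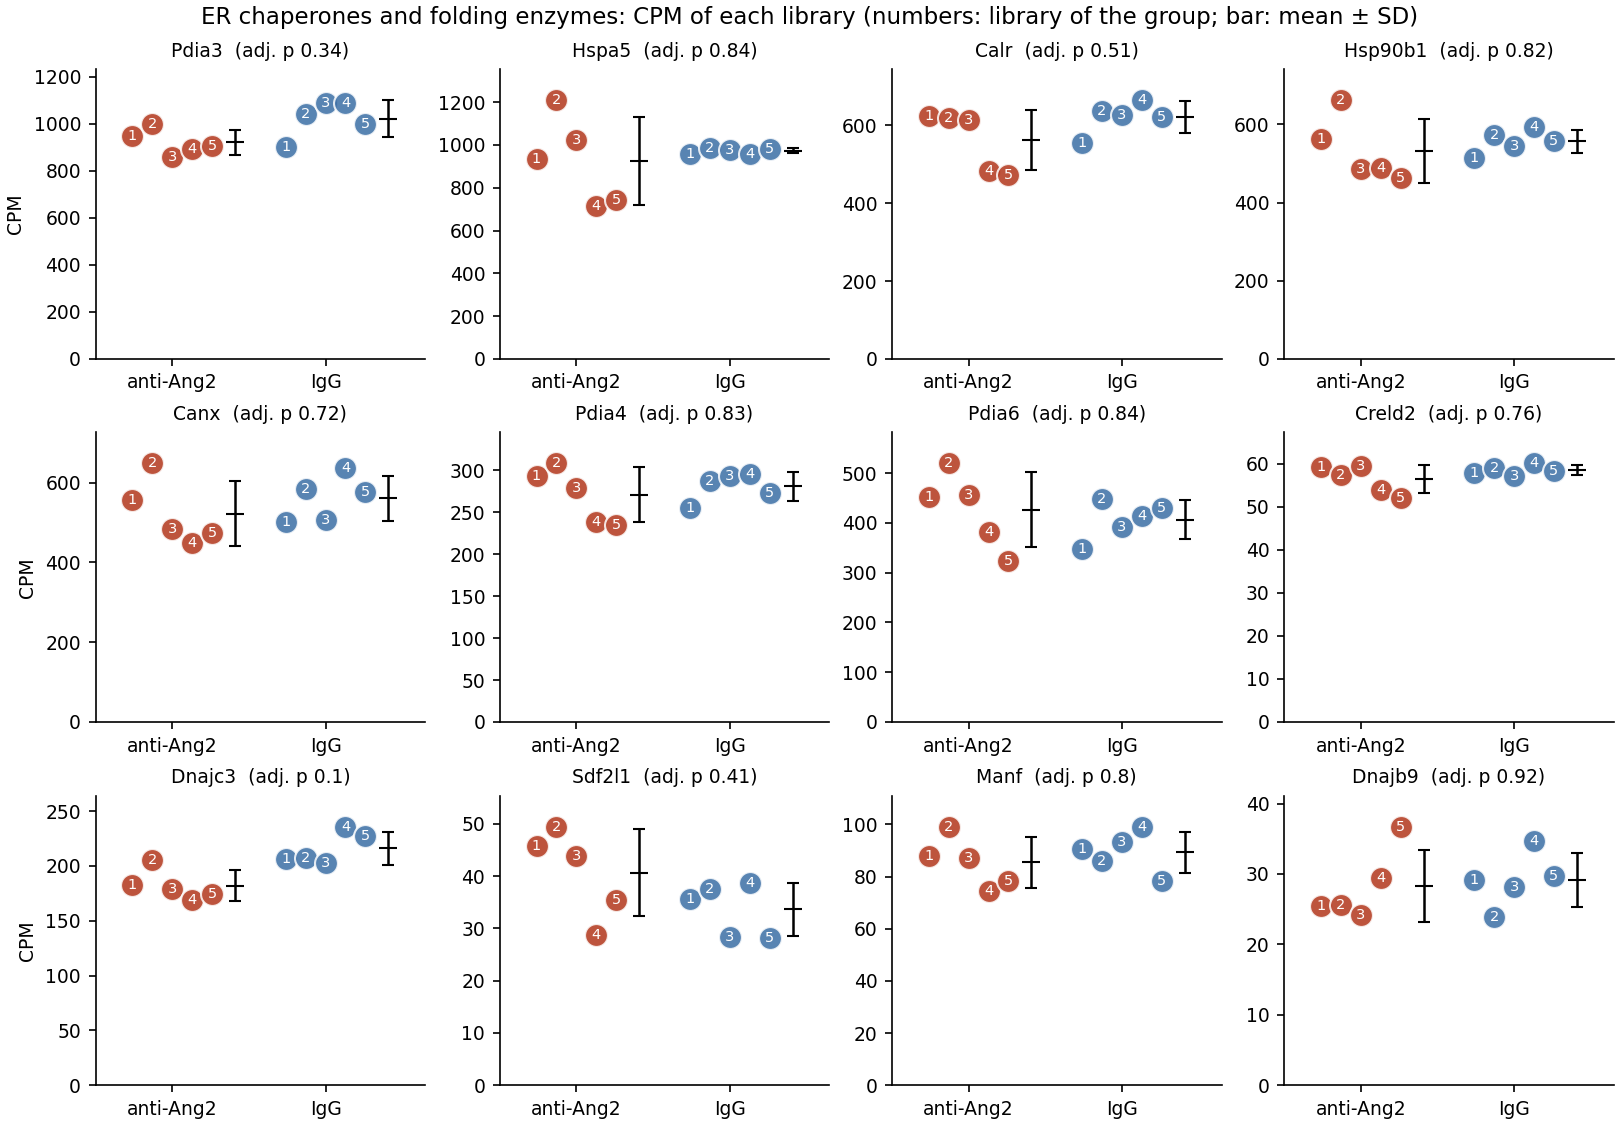
CPM of the 12 ER chaperones and folding enzymes in each library (vertical axis, from 0), anti-Ang2 left and IgG right; numbers in the points are the libraries of a group, and the bar beside them is the mean ± SD of 5 libraries. For Hspa5, Calr and Pdia4 anti-Ang2 libraries 4 and 5 are the lowest of all 10.

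Within the anti-Ang2 group the chaperones split by library, a pattern that was picked out after the values were seen. Libraries 4 and 5 both lay below libraries 1, 2 and 3 for 9 of the 12 genes (Hspa5, Calr, Canx, Pdia4, Pdia6, Dnajc3, Sdf2l1, Manf and Creld2), or 75.0%, where 19.6% of all tested genes had that order. For 6 of the 12 they were also below every IgG library, as were 5.5% of all tested genes. Dnajb9 had the opposite order, with 29.39 and 36.73 CPM in anti-Ang2 4 and 5, against 24.14 to 25.63 CPM in the other anti-Ang2 libraries. Summed over the 12 genes, the anti-Ang2 libraries had 4771, 5401, 4594, 4004 and 3992 CPM, against 4452, 4971, 4834, 5116 and 4859 CPM in IgG libraries. Melanoma marker sums were also higher in libraries 1, 2 and 3 (5966 to 8050 CPM) than in libraries 4 and 5 (2575 and 1651 CPM), but among the first 3 the order differed, as anti-Ang2 2 had the highest chaperone sum and the lowest melanoma sum. The IgG libraries 2 and 4, whose melanoma sums were 2459 and 2630 CPM, had the highest chaperone sums of their group. With the melanoma sum as a term in the fit the median log2 fold change of the 12 genes was -0.22, and none was called. Without anti-Ang2 1, 2 and 3 it was -0.24. In that fit Hspa5 was called lower (log2 fold change -0.43 ± 0.07, SE, edgeR adjusted p = 0.0403). It set only anti-Ang2 4 and 5 against the IgG libraries. As both were picked out after their low values were seen, its p-value cannot serve as a test of Hspa5. Over 20 alternatives the adjusted p for Hspa5 ran from 0.0403 to 0.996. Without anti-Ang2 4 and 5 the estimate for Hspa5 was 0.11 (adjusted p = 0.528). The part of melanoma RNA or of library quality in this split was not tested beyond these fits.

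**Figure D3:**
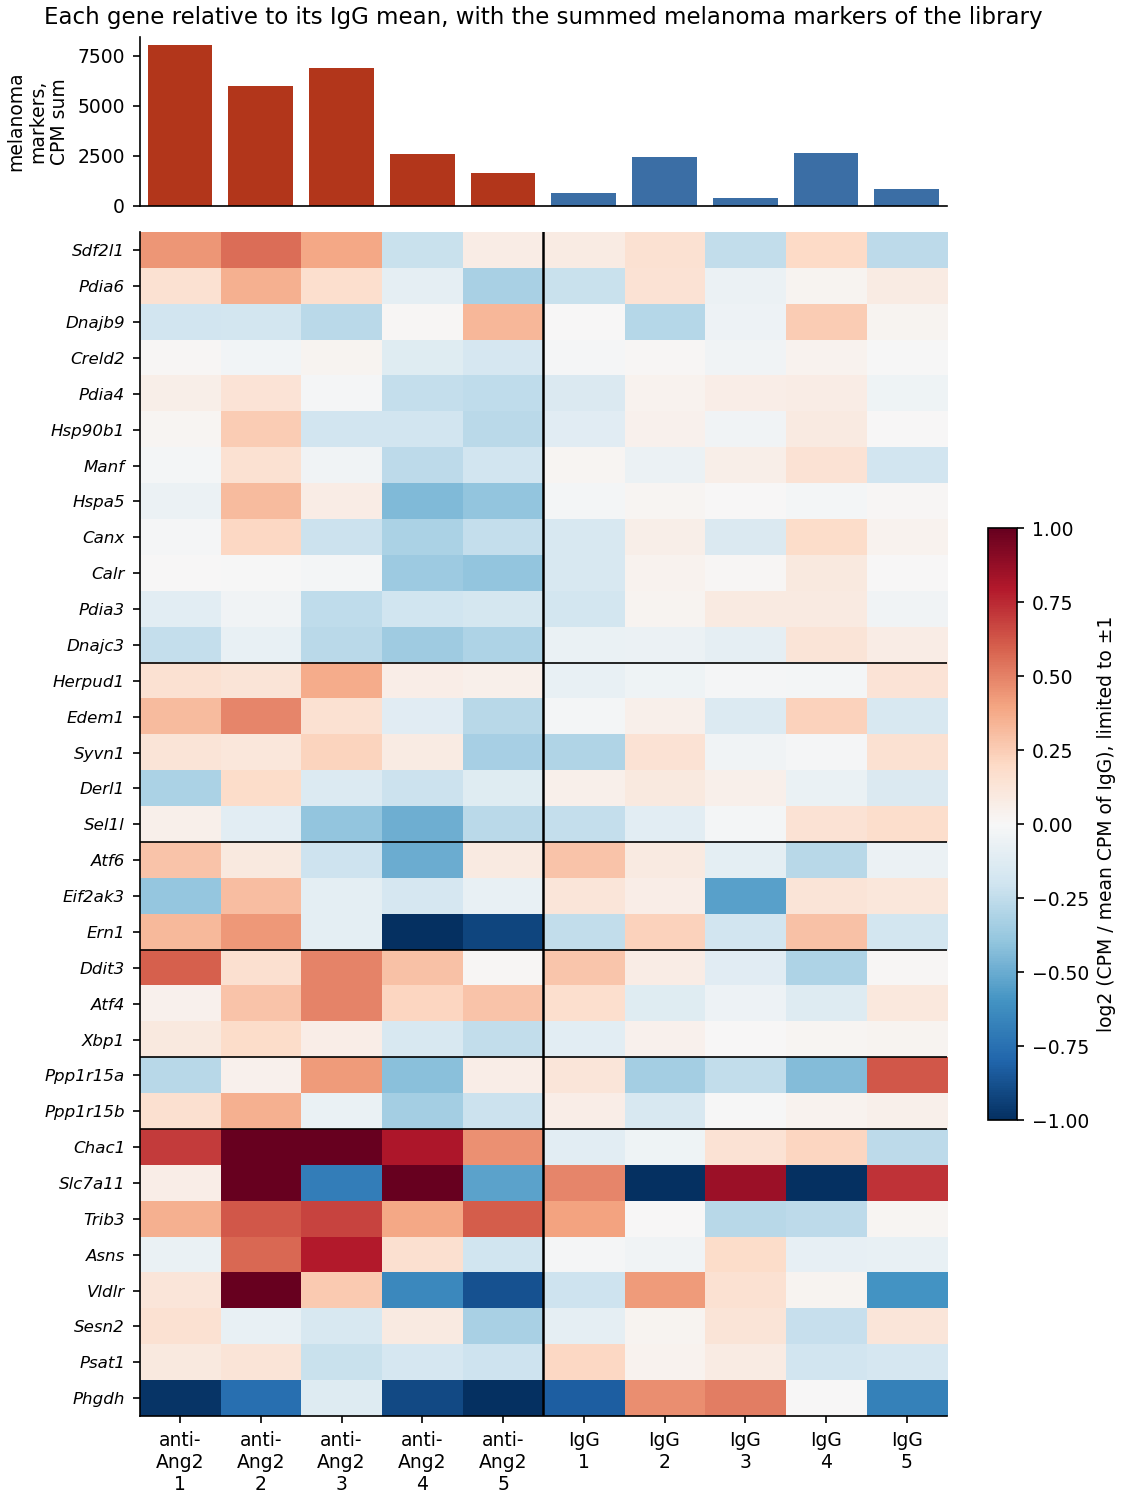
Top, summed CPM of 12 melanoma markers in each library (bars, from 0); bottom, log2 of the CPM of each gene over its mean in IgG libraries, limited to ±1, with anti-Ang2 libraries 1 to 5 left of IgG libraries 1 to 5 and lines between the roles (chaperones at the top, then ERAD, sensors, transcription factors, phosphatase subunits and ATF4 targets). Most chaperones are blue in anti-Ang2 4 and 5, whose melanoma sums were 2575 and 1651 CPM, and Chac1 and Trib3 are red in every anti-Ang2 library.

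The spread within the anti-Ang2 group was wide for other roles too. For 27 of the 33 genes the SD of log2 CPM was larger in the anti-Ang2 than in the IgG libraries, or 81.8%, where 60.2% of all tested genes had the larger SD there. Ern1, which encodes IRE1, had 28.28, 30.58, 21.11, 9.053 and 11.94 CPM in anti-Ang2 libraries, against 19, 26.51, 19.76, 27.74 and 19.92 CPM in IgG libraries. Anti-Ang2 4 and 5 were again the lowest of all 10, and the fold change of 0.894 had a 95% interval from 0.561 to 1.42.

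Of the 5 ERAD genes, which carry misfolded proteins out of the ER for degradation, none passed the test with edgeR, DESeq2 or limma-voom, and 0 had an unadjusted p under 0.05. Their estimates ran from -0.23 for Sel1l to 0.16 for Herpud1, with a median of 0.06. Herpud1, which recruits components of the ERAD complex and whose promoter carries both the ERSE-II and the ATF4 element shown above, had the highest level per gene length. It had 99.8, 98.02, 115.9, 93.95 and 93 CPM in anti-Ang2 libraries, against 85.23, 86.99, 89.23, 88.81 and 99.01 CPM in IgG libraries. Anti-Ang2 libraries lay above 4 of the 5 IgG libraries, and IgG 5 lay within their range (fold change 1.11, 95% interval 0.989 to 1.26, adjusted p = 0.332). Sel1l, the partner of the ubiquitin ligase Syvn1, averaged 199.5 ± 30.4 CPM in anti-Ang2 and 233.4 ± 27.8 CPM in IgG libraries, and Syvn1 itself 79.68 ± 11 CPM in anti-Ang2 and 76.69 ± 9.45 CPM in IgG libraries. Edem1, which acts on misfolded glycoproteins, averaged 110.0 ± 23.4 CPM in anti-Ang2 and 99.77 ± 11.2 CPM in IgG libraries. Derl1, a membrane protein of the ERAD channel, averaged 108.0 ± 14.8 CPM in anti-Ang2 and 116.6 ± 7.89 CPM in IgG libraries. The groups overlapped for all 5 genes.

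The 3 sensors did not pass the test with edgeR, DESeq2 or limma-voom, had 0 unadjusted p-values under 0.05 and gave negative estimates (-0.02 to -0.16). Atf6, the most abundant of them per gene length, had 92.26, 81.18, 65.53, 53.67 and 80.5 CPM in anti-Ang2 libraries, against 92.06, 80.62, 70.81, 62.57 and 72.69 CPM in IgG libraries. The groups overlapped almost wholly (fold change 0.985, 95% interval 0.786 to 1.23). Eif2ak3 averaged 37.57 ± 6.81 CPM in anti-Ang2 and 39.31 ± 6.92 CPM in IgG libraries. Of its exon bases, 8.05% are shared with the gene model Gm43292 on the opposite strand, which the unstranded kit cannot separate. Gm43292 had 169 counts over all libraries, against 1111 to 3407 counts per library for Eif2ak3. Ppp1r15b (11.4%, with the gene model Gm26616) and Hsp90b1 (10.3%, with a pseudogene) share more of their exon bases with the opposite strand.

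Among the transcription factors, Atf4 had 189.3, 223.8, 258.6, 213.2 and 223.5 CPM in anti-Ang2 libraries, against 206.6, 168.4, 177.6, 167.4 and 197.6 CPM in IgG libraries. All anti-Ang2 libraries other than anti-Ang2 1 lay above the IgG range, and the fold change was 1.21 (95% interval 1.04 to 1.4), with an adjusted p of 0.148 over all genes. Ddit3 had 19.36, 14.24, 18, 15.67 and 12.86 CPM in anti-Ang2 libraries, against 15.45, 13.42, 11.81, 10.3 and 12.84 CPM in IgG libraries. The groups overlapped between 12.86 and 15.45 CPM, and the fold change of 1.26 had an interval from 0.989 to 1.59 (adjusted p = 0.302). Exons of Mars, on the opposite strand, share 3.97% of the exon bases of Ddit3. Mars had 47223 counts over all libraries, against 429 to 1112 counts per library for Ddit3. The part of Mars reads in the Ddit3 values was not tested. Xbp1 averaged 286.1 ± 35.4 CPM in anti-Ang2 and 286.3 ± 11.7 CPM in IgG libraries, with a fold change of 0.999 (95% interval 0.873 to 1.14). No transcription factor passed the test with edgeR, DESeq2 or limma-voom, and 1 of the 3 (Atf4) had an unadjusted p under 0.05.

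Ppp1r15a (GADD34) and Ppp1r15b (CReP) direct a phosphatase to eIF2α and so end the integrated stress response; the first is induced by stress and the second is constitutive. Ppp1r15a had 249.9, 312.2, 408, 227.3 and 317.9 CPM in anti-Ang2 libraries, against 328.9, 239.5, 256.1, 224.8 and 465.3 CPM in IgG libraries. The ranges overlapped almost wholly, and the fold change of 1.0 had a wide interval (0.722 to 1.39, adjusted p = 0.999). Ppp1r15b averaged 95.78 ± 18.9 CPM in anti-Ang2 and 95.74 ± 5.83 CPM in IgG libraries, with a fold change of 1.0 (95% interval 0.83 to 1.21). Neither passed the test with edgeR, DESeq2 or limma-voom, and 0 unadjusted p-values were under 0.05.

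The 8 ATF4 targets held both genes that rose. Chac1, an enzyme that degrades glutathione, had 4.44, 6.341, 7.491, 4.784 and 3.752 CPM in anti-Ang2 libraries 1 to 5, against 2.53, 2.656, 3.013, 3.171 and 2.276 CPM in IgG libraries 1 to 5. Every anti-Ang2 library lay above every IgG library, and the mean was 5.361 ± 1.52 CPM in anti-Ang2 and 2.729 ± 0.363 CPM in IgG libraries (SD, n = 5 each). The log2 fold change was 0.97 ± 0.24 (SE), a fold of 1.96 with a 95% interval from 1.35 to 2.85, and the edgeR adjusted p was 0.049. These values rest on 147 to 390 counts per anti-Ang2 library and 89 to 220 per IgG library. The gene (ENSMUSG00000027313.3) spans chr2:119351229-119354381 on the plus strand of mm10.

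Trib3, a pseudokinase that binds ATF4 and the kinase AKT, had 79.07, 94.72, 98.59, 80.57 and 94.05 CPM in anti-Ang2 libraries, against 81.41, 61.99, 50.93, 51.55 and 62.66 CPM in IgG libraries. The IgG libraries 2 to 5 lay below every anti-Ang2 library, and IgG 1 lay above anti-Ang2 1 and 4. The means were 89.4 ± 8.93 CPM in anti-Ang2 and 61.71 ± 12.3 CPM in IgG libraries (SD, n = 5 each), with a log2 fold change of 0.53 ± 0.13 (SE), a fold of 1.45 (95% interval 1.19 to 1.77) and an edgeR adjusted p of 0.0442. The gene (ENSMUSG00000032715.9) spans chr2:152337422-152344032 on the minus strand of mm10. DESeq2 (adjusted p of 0.00374 for Trib3 and 0.00101 for Chac1), limma-voom and RLE scaling called both genes too.

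Both calls lay close to the threshold. When 1 library at a time was left out, Trib3 was called in 1 of 10 fits (without IgG 1, adjusted p 0.00748; 0.0539 to 0.114 in the others) and Chac1 in 1 of 10 (without anti-Ang2 5, 0.0277; 0.0654 to 0.125 in the others), with log2 fold changes of 0.47 to 0.65 for Trib3 and 0.83 to 1.08 for Chac1. With the melanoma marker sum as a term in the fit, neither was called (Trib3 0.60 ± 0.19, SE, adjusted p = 0.216; Chac1 0.71 ± 0.36, SE, adjusted p = 0.432). Over 20 alternatives the adjusted p ran from 0.00374 to 0.334 for Trib3 and from 0.00101 to 0.557 for Chac1. With the macrophage sum as a term neither was called either (Trib3 0.47 ± 0.15, SE, adjusted p = 0.214; Chac1 0.83 ± 0.31, SE, adjusted p = 0.288). Over all genes 19 were called higher with the melanoma sum and 41 with the macrophage sum, against 217 in the main fit. Trib3 and Chac1 were both at their highest in anti-Ang2 3. That library had the highest macrophage sum of all 10 libraries (297.1 CPM) and a melanoma sum of 6880 CPM. IgG 1, where Trib3 was highest among IgG libraries, had the highest macrophage sum of that group (210.3 CPM). Its Chac1 value (2.53 CPM) lay below those of IgG 2, 3 and 4. Anti-Ang2 1 had the next highest macrophage sum after anti-Ang2 3 (259.8 CPM), but the lowest Trib3 value of its group (79.07 CPM). Anti-Ang2 5 had the lowest macrophage sum (75.06 CPM) and the lowest Chac1 value (3.752 CPM) of its group, but 94.05 CPM of Trib3. The part of either kind of RNA in these calls was not tested beyond these fits.

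**Figure D4:**
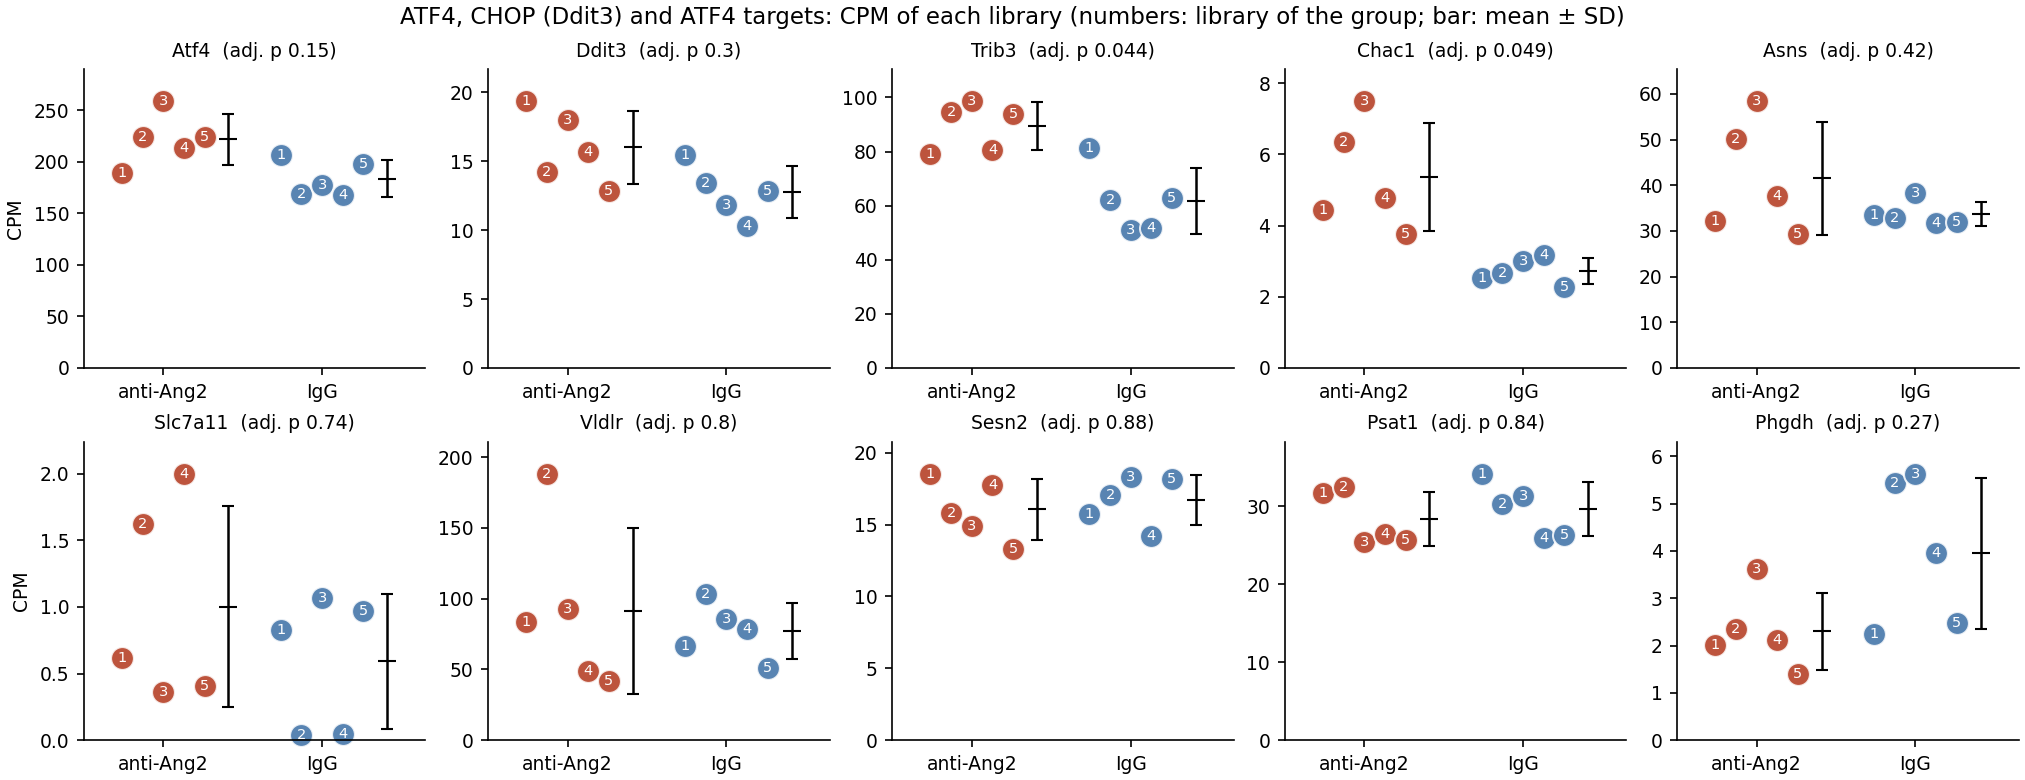
CPM of Atf4, Ddit3 and the 8 ATF4 targets in each library (vertical axis, from 0), anti-Ang2 left and IgG right, with library numbers in the points and the mean ± SD of 5 libraries beside them. For Chac1 the anti-Ang2 points (3.752 to 7.491 CPM) lie above all IgG points (2.276 to 3.171 CPM), and for Trib3 IgG 1 lies within the anti-Ang2 range.

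The other 6 targets were not called with edgeR, DESeq2 or limma-voom, and 1 of them (Phgdh) had an unadjusted p under 0.05. Asns, which makes asparagine, had 32.1, 50.08, 58.41, 37.7 and 29.3 CPM in anti-Ang2 libraries, against 33.45, 32.81, 38.34, 31.83 and 32.05 CPM in IgG libraries. Anti-Ang2 2 and 3 lay above every IgG library and anti-Ang2 5 lay below every IgG library (fold change 1.23, 95% interval 0.941 to 1.61, adjusted p = 0.421). Phgdh, the first enzyme of serine synthesis, was low, with 2.008, 2.349, 3.611, 2.116 and 1.404 CPM in anti-Ang2 libraries, against 2.238, 5.445, 5.637, 3.963 and 2.481 CPM in IgG libraries. Its fold change was 0.581 (95% interval 0.34 to 0.995, adjusted p = 0.27). Psat1, the next enzyme of that pathway, averaged 28.37 ± 3.47 CPM in anti-Ang2 and 29.66 ± 3.5 CPM in IgG libraries. Sesn2, a leucine sensor that restrains mTORC1, averaged 16.06 ± 2.13 CPM in anti-Ang2 and 16.69 ± 1.73 CPM in IgG libraries.

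Slc7a11, the cystine carrier that feeds glutathione synthesis, was at a low level, with 16 to 105 counts in anti-Ang2 libraries and 2 to 44 in IgG libraries. Its fold change of 1.71 had an interval from 0.438 to 6.65. Vldlr, a lipoprotein receptor, had 83.65, 188.5, 92.58, 49.21 and 42.14 CPM in anti-Ang2 libraries, against 66.64, 103.6, 85.87, 78.52 and 50.85 CPM in IgG libraries. Anti-Ang2 2 was the highest and anti-Ang2 4 and 5 the lowest of all 10 (fold change 1.18, 95% interval 0.682 to 2.05). Of the 5 targets with the ATF4 element in their window, Trib3 and Chac1 passed the test, and Vldlr, Asns and Slc7a11 had estimates of 0.24, 0.30 and 0.77 on the log2 scale. The estimates of the 3 targets without a match were -0.06 for Sesn2, -0.06 for Psat1 and -0.78 for Phgdh, and that of Herpud1, which has the element, was 0.16. For Psat1 the windows start 22278 and 22715 bases from the 5′ end of the gene in GENCODE M21, so the bases around that end were not searched. Phgdh rests on 55 to 451 counts per library, and the estimate for Slc7a11 had an SE of 0.895. The signs of several estimates rest on few libraries, since Vldlr had an estimate of -0.205 without anti-Ang2 2 and Asns one of -0.0183 without anti-Ang2 1, 2 and 3. Over all 16240 tested genes 8439 estimates were positive. The 7 chaperones with ERSE had estimates between -0.25 (Dnajc3) and 0.07 (Pdia6), and no relation between elements and estimates was tested.

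Related genes gave few calls. At the unadjusted p under 0.05 that is also given for these lists, 1484 of all 16240 tested genes were higher and 1478 lower. DESeq2 called 751 of all tested genes higher and 849 lower, and limma-voom 670 and 780. None was called in either direction among 24 other ER chaperones and folding enzymes (median log2 fold change -0.02; at an unadjusted p under 0.05, 2 higher and 1 lower), 25 genes of the translocon and signal peptidase (0.05; 4 and 1) or 21 other ERAD genes (-0.02; 2 and 2). The same held for 16 genes of serine and amino acid synthesis and one-carbon metabolism (0.04; 3 and 1), 14 of eIF2, eIF2B and eIF2 kinases (0.05; 1 and 1) and 10 mitochondrial chaperones and proteases (0.13; 3 and 0). DESeq2 called 1 higher and 0 lower in the other ER chaperones, 1 and 1 in other ERAD genes and 0 and 1 in amino acid synthesis, and none in the translocon, eIF2 and mitochondrial lists. Limma-voom called 1 higher in the other ER chaperones, 1 in other ERAD genes and 1 in the mitochondrial list, 1 higher and 1 lower in amino acid synthesis, and none in the translocon and eIF2 lists.

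Among 17 other ATF4 and CHOP targets (median 0.11), 0 were higher and 1 was lower with edgeR. At an unadjusted p under 0.05, 2 were higher and 4 lower, and DESeq2 and limma-voom each called 2 higher and 2 lower. The gene that fell was Ddit4 (REDD1), an inhibitor of mTORC1 that is also induced by hypoxia and glucocorticoids. It had 46.77, 50.89, 40.85, 51.8 and 62.71 CPM in anti-Ang2 libraries, against 85.59, 104.9, 105, 94.83 and 110.3 CPM in IgG libraries. The groups did not overlap, and the log2 fold change was -0.98 ± 0.12 (SE, edgeR adjusted p = 0.00111). Ddit4 was called in all 10 fits that left out 1 library. With both marker sums as terms it was not called (-0.69 ± 0.10, SE, edgeR adjusted p = 0.0817). That fit called 0 genes higher and 3 lower among all genes. Over 20 alternatives the adjusted p for Ddit4 ran from 3.62e-12 to 0.0817.

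Of 11 tested amino acid transporters (median 0.24), 1 rose and 1 fell with edgeR. At an unadjusted p under 0.05, 5 were higher and 2 lower, with DESeq2 3 and 1, and with limma-voom 2 and 1. Slc6a9, the glycine transporter GlyT1, fell to 29.39 ± 5.18 CPM in anti-Ang2 libraries, against 73.76 ± 14.7 CPM in IgG libraries (SD, n = 5 each; log2 fold change -1.33 ± 0.16, SE, edgeR adjusted p = 0.00142). Its anti-Ang2 values (23.21 to 34.55 CPM) did not overlap the IgG values (52.02 to 88.37 CPM). It was called in all 10 fits without 1 library, though not with both marker sums as terms (edgeR adjusted p = 0.0878). The fit with both sums called 0 genes higher and 3 lower among all genes. Over 20 alternatives the adjusted p for Slc6a9 ran from 1.16e-11 to 0.0878. Slc38a1, a carrier of glutamine, had 16.62, 6.985, 11.75, 18.96 and 11.79 CPM in anti-Ang2 libraries, against 6.155, 2.62, 4.082, 7.663 and 3.964 CPM in IgG libraries. Its groups overlapped at anti-Ang2 2 and IgG 4 (log2 fold change 1.44 ± 0.33, SE, edgeR adjusted p = 0.0354), and it was called in 4 of 10 fits without 1 library. Among 20 cytosolic aminoacyl-tRNA synthetases, Rars, which charges arginine, was higher and none was lower (94.1 ± 11.8 CPM in anti-Ang2 and 72.46 ± 3.04 CPM in IgG libraries, SD, n = 5 each; log2 fold change 0.38 ± 0.09, SE, edgeR adjusted p = 0.0398). Its groups did not overlap, and it was called in 1 of 10 fits without 1 library (without anti-Ang2 5); 0 synthetases were lower at an unadjusted p under 0.05, with DESeq2 or with limma-voom.

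**Figure D5:**
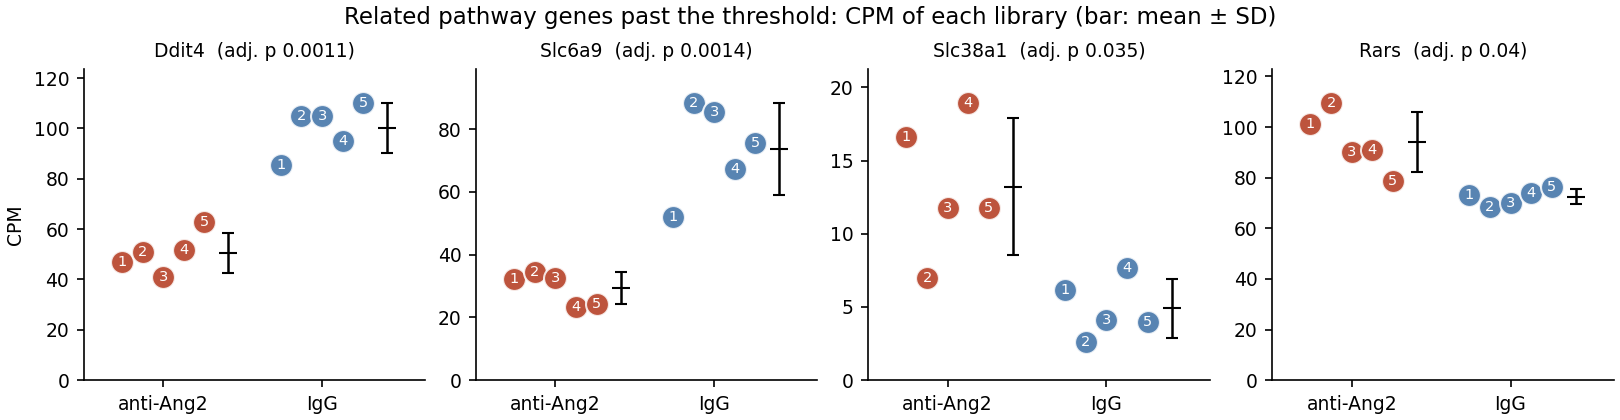
CPM of the 4 genes of related pathways with an adjusted p under 0.05, in each library (vertical axis, from 0), anti-Ang2 left and IgG right, with library numbers in the points and the mean ± SD of 5 libraries beside them. Ddit4 and Slc6a9 are lower in every anti-Ang2 library than in any IgG library, and Rars is higher.

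In the authors' deposited table, 3 of the 33 genes had an adjusted p under 0.05. The log2 fold change in the authors' deposited table was 0.48 for Trib3 (adjusted p = 0.00374), 0.87 for Chac1 (adjusted p = 0.00101) and -0.22 for Dnajc3 (adjusted p = 0.0415). The share of all genes under that threshold in the deposited table was not counted. The DESeq2 fit run here on the same counts gave adjusted p-values of 0.00374, 0.00101 and 0.0416 for these genes. Among all 16240 tested genes it called 751 higher and 849 lower. Its log2 fold changes were larger in size (0.544, 0.985 and -0.236). The deposited values are therefore no separate line of evidence.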

How the data were processed

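RNA of tumour LEC from 10 mice was sequenced, 1 library per mouse, with the SMART-Seq v4 and NEBNext ChIP-Seq kits per the labels. Per the submitters' processing notes, STAR, featureCounts and DESeq2 were used with mm10. Their versions, the annotation and the strand setting are not given in the sources used here. Per the file headers the authors deposited raw gene counts, the input of every test, and FPKM, used only to compare levels between genes. The TPM the authors deposited add up to more than TPM can by definition, so they were taken as a score and not used, nor was the baseMean signal. Log2 fold changes and p-values in the deposited table are those of the authors. Library totals were 38090933 to 83850341 counts; without molecular identifiers, the spread between libraries was used as the error. The series design states independent biological replicates.

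The main test was edgeR 4.0.16 in R 4.3.3 (two-sided quasi-likelihood F test on counts scaled by TMM, filterByExpr with minimum count 10 and minimum total 15, treatment as the only term, adjusted over 16240 genes). Standard errors and 95% intervals came from the same test. Alternatives were DESeq2 1.42.0, limma 3.58.1 voom with quality weights, RLE scaling, no filter, a replicate block, marker sums as terms and libraries left out. Marker sums were compared by exact permutation of the treatment labels (252 arrangements). Python 3.11.15 and matplotlib 3.10.9 were also used.

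The members and gene lists were chosen with earlier results of these data known. All 33 members are accounted for; per-library values were set for called members and, in roles without a call, for the member with the highest mean FPKM, and other members' values were added after they were seen. Of each related list, up to 4 called genes in each direction were named. IDs of all 33 members were found in GENCODE M21 once versions were ignored. Motif positions count from the RefSeq start. Protein sequences were not used here.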

Additional observations from a re-analysis of the deposited data

Results flagged for a closer look

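Among 74 groups of 5 libraries (the 33 members and the 4 named related genes, each in both treatments), 3 held a library whose gap to its nearest neighbour exceeded 0.71 of the range of its group. Chance alone marks about 1 in 20 such groups. All 3 lay in the IgG group. Xbp1 was low in IgG 1 at 266 CPM, where the other IgG libraries had 287.5 to 295.5 CPM. Eif2ak3 was low in IgG 3 at 27 CPM, with 41.13 to 42.93 CPM in the others. Asns was high in IgG 3 at 38.34 CPM, with 31.83 to 33.45 CPM in the others.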

How the results depend on the processing

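Over all genes, DESeq2 called 780 higher and 888 lower, limma-voom 670 and 780, the replicate block 82 and 268, the melanoma term 19 and 71, the macrophage term 41 and 143, and both terms 0 and 3. Without anti-Ang2 1, 2 and 3 the counts were 55 and 178, and without anti-Ang2 4 and 5 they were 531 and 598. With 1 library left out, 82 to 326 genes were higher and 259 to 468 lower. Of the members, 0 were higher with no filter, the replicate block, the melanoma term, the macrophage term, both terms or without anti-Ang2 1, 2 and 3. Without anti-Ang2 4 and 5, 1 was higher (Chac1), and with 1 library left out, 0 to 1. DESeq2 called 1 lower (Dnajc3, adjusted p = 0.0416), as did the fit without anti-Ang2 1, 2 and 3 (Hspa5). The latter call rests on anti-Ang2 4 and 5, which were picked out after their low values were seen. The median log2 fold change moved for the chaperones to -0.22 (melanoma term), -0.20 (both terms) and -0.24 (without anti-Ang2 1, 2 and 3), and for ERAD to -0.17, -0.15 and -0.17 in the same fits. For the transcription factors it was 0.12 (macrophage term), 0.0775 (both terms) and 0.15 (without anti-Ang2 1, 2 and 3), and for the ATF4 targets 0.0083 (both terms) and -0.0666 (without anti-Ang2 1, 2 and 3). The cause was not tested. The replicate numbers did not pair the libraries: deviations of same-numbered libraries correlated at -0.12, 0.11, -0.11, -0.09 and -0.04, and 1 of the 5 numbers had its own partner as the best. With the replicate block Trib3 had a log2 fold change of 0.55 (adjusted p = 0.105), Chac1 0.94 (0.119) and Rars 0.37 (0.128). Among single genes, 638 of the values under alternatives were called as in the main fit, or called in neither and moved by less than the spread of the libraries. Of the others, 59 lost a call, 2 gained one, 41 moved without a call and none of the called values changed sign. Slc7a11 rests on 2 to 105 counts per library.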
